A study of Mus musculus with 34 samples.

Results

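The endoplasmic reticulum (ER) chaperones, disulfide enzymes and ER-associated degradation (ERAD) genes described here are a set of 41 genes, listed by symbol and looked up by that symbol in the deposited RNA table. All 41 had a row among the 23812 gene rows of the table. By known function, 26 were counted as folding genes, 14 as degradation genes, and Serp1, a translocon-associated protein, as neither. The RNA comparison was between 2 samples of resting B cells and 2 samples of B cells activated with LPS (lipopolysaccharide, an outer membrane molecule of bacteria that is sensed by a Toll-like receptor).

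Both groups were CD43-negative splenic B cells isolated magnetically from C56BL/6J mice, as the strain is spelled in the labels, aged 6 to 8 weeks, with no transgene or other allele named. The activated cells were grown in complete RPMI with LPS from Salmonella typhimurium at 10 µg per ml, per the treatment field and the design (the growth field gives the amount per µl), and taken at 72 h. The resting cells are named as controls, but their growth and treatment fields repeat the LPS culture, so how they were handled after isolation is not settled by the labels. Chromatin data came from activated cells: FAIRE-seq (nucleosome-poor DNA), STARR-seq (a reporter assay of enhancer activity on FAIRE DNA), ChIP-seq for H3K27ac and H3K4me3, and Hi-C (pairs of regions in contact), each used here as 1 deposited list without replicates. For STARR-seq the cells were transfected during the culture, with reporter times of 12 h and 24 h. The STARR list is not split by reporter time.

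Proteins that enter the ER are held by Hsp70-type and Hsp90-type chaperones and lectins, receive disulfide bonds from oxidases and isomerases, and have proline bonds turned by prolyl isomerases. Chains that fail to fold are trimmed of mannose, recognised by lectins, passed through a membrane ubiquitin ligase complex and pulled into the cytosol by an ATPase for destruction by the proteasome. Many of these genes are known targets of the unfolded protein response, and antibody-secreting cells are known for a large ER.

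The RNA values, whose unit the table does not name, were read as FPKM, a level normalised for transcript length and sequencing depth. The table holds no read totals. Differences were tested with limma on log2(FPKM + 1) across 10863 genes with at least 1 FPKM in at least 2 samples, with two-sided Benjamini-Hochberg adjusted p under 0.05 as the call. Of the 41 genes, 40 were tested, 38 were called higher in activated cells, 0 were called lower and 2 were not called, where 28.2% of all tested genes were called higher and 26.2% lower. All 40 tested genes were at or above 1 FPKM in each of the 4 samples, so none entered the test through 1 group alone. Their median log2 difference was 1.72, which is 3.28-fold on FPKM + 1, against a median of 0.03 over all tested genes. Of the 38 called genes 37 were higher by at least 2-fold, a size reached by 14.0% of tested genes. In all 40, both activated samples lay above both resting samples, which held for 41.5% of tested genes.

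The FPKM of the 41 genes summed to 2046 and 2255 in the resting samples and to 8316 and 9704 in the activated samples. This was 0.837% and 0.783% of all FPKM in resting cells and 2.92% and 3.40% in activated cells. Among the 100 genes of highest mean level the set held 1 member in resting cells and 9 in activated cells, and among the highest 500 it held 8 and 21. The sum was concentrated in few genes: the 5 largest members held 49.5% and 49.9% of it in the resting samples and 56.9% and 53.5% in the activated samples. Serp1, Calr, Hspa5 and Mzb1 were among those 5 in each sample, with Ppib as the other in resting cells and Hsp90b1 in activated cells.

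**Figure D1:**
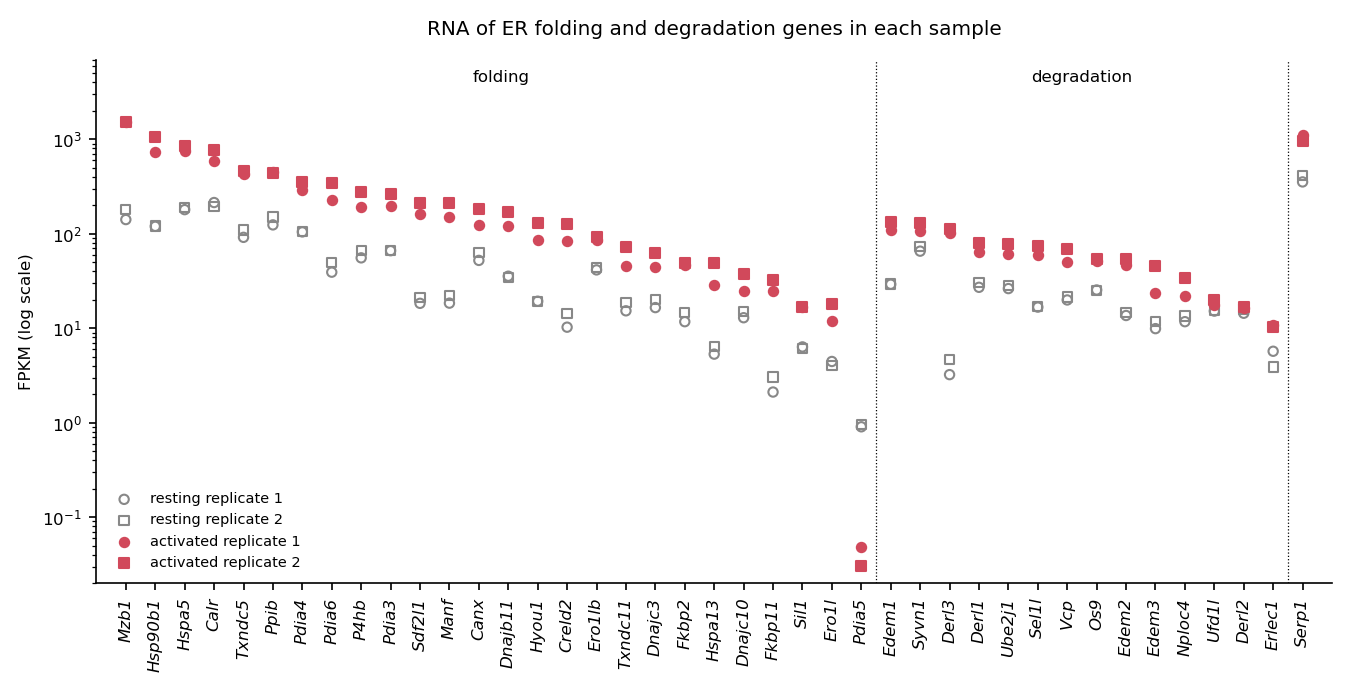
FPKM (log scale) of the 41 genes in each of the 4 RNA samples, open grey symbols for resting and filled red symbols for activated cells, ordered by activated mean within folding, degradation and Serp1. In 40 genes both activated samples lie above both resting samples, with the gap widest for Derl3 and narrow for Derl2 and Ufd1l, and Pdia5 lies the other way below 1 FPKM.

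The ER stress response element (ERSE) is a promoter motif of unfolded protein response genes made of CCAAT, 9 bases of any kind and CCACG. It was searched on both strands of RefSeq windows (GRCm38.p6) from 250 bases before to 50 after the start of each gene, and 34 of the 41 genes had such a window, 3 of them under a newer symbol. Of these 34 genes 10 held the element, or 29.4%, against 37 of 27025 genes in the table, or 0.137%. The 27025 genes were not limited to tested genes. Because the element is known from unfolded protein response genes, and many of the 41 are known targets, this contrast was in part set in advance. Among genes with a window the element was found in 8 of 21 folding genes and 2 of 12 degradation genes. The matches are shown because they cover the range of the RNA change, from the largest to the smallest called, and are written in the element's own direction with both half-sites in capitals, in falling order of the RNA difference.
Derl3: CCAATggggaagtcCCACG
Creld2: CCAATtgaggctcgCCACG
Hsp90b1, upstream match: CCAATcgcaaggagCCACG
Hsp90b1, downstream match: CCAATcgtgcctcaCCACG
Pdia6: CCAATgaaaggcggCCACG
Hspa5: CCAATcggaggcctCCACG
Calr: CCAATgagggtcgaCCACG
Dnajc3: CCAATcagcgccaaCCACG
Canx: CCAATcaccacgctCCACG
Ero1lb: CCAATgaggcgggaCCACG
Syvn1: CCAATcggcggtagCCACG
The 9 spacer bases differed among all 11 matches, while the half-sites are fixed by the search. The element lay between 44 and 212 bases before the start, on the gene's strand in 6 matches and on the other strand in 5. The 10 genes with the element had a median log2 difference of 1.93, and the 23 tested genes with a window but no match had a median of 1.69; the ranges were 0.77 to 4.46 and 0.11 to 3.16. Sdf2l1 is among the genes with no exact match in this window and Derl2 is another, so the exact element did not separate large from small differences. A search that allowed 1 mismatch found 16 of 34 genes, or 47.1%, against 1.72% of all genes. It found 11 of 21 folding genes (52.4%) and 5 of 12 degradation genes (41.7%), so the classes were closer than with the exact element.

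**Figure D2:**
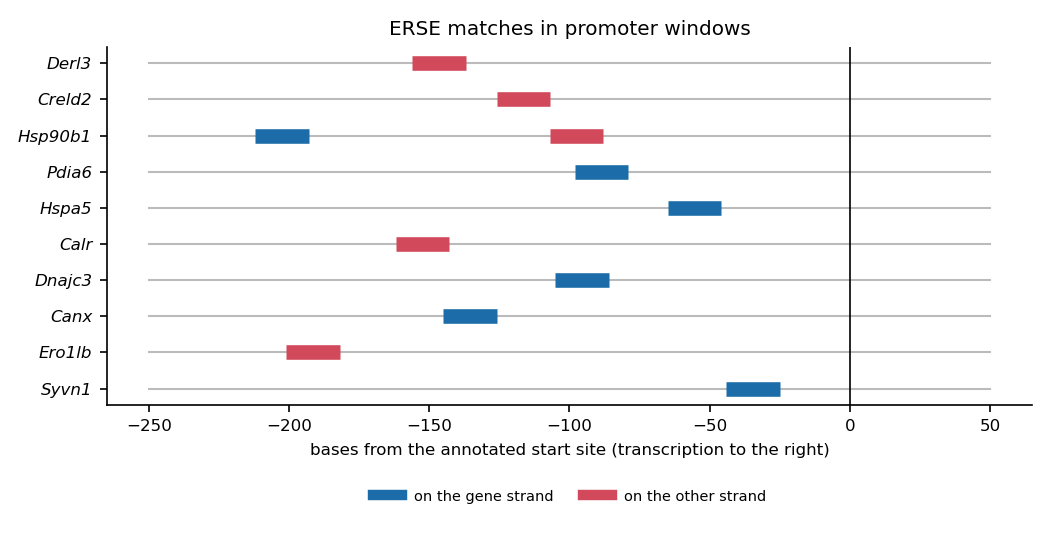
Position of each ERSE match in the promoter window of the 10 genes that hold one, in bases from the annotated start, ordered by RNA difference with Derl3 at the top and Syvn1 at the bottom. Blue blocks are matches on the gene's strand and red blocks matches on the other strand, and Hsp90b1 is the gene with 2.

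3 upstream stretches of 250 bases are given because they belong to the gene with the largest RNA change, to the gene with 2 elements and to BiP, where few of the deposited chromatin peaks lie. They are written 5′ to 3′ along the gene on GRCm38.p6, with ERSE matches in capitals, and a match on the other strand reads as its reverse complement.
Derl3 promoter, chr10:75893148-75893397, plus strand: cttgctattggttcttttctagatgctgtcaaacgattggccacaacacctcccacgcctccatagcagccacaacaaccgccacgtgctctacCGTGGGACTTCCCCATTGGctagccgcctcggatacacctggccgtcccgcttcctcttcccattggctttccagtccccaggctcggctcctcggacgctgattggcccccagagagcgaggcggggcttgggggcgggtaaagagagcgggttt
Hsp90b1 promoter, chr10:86705445-86705694, minus strand: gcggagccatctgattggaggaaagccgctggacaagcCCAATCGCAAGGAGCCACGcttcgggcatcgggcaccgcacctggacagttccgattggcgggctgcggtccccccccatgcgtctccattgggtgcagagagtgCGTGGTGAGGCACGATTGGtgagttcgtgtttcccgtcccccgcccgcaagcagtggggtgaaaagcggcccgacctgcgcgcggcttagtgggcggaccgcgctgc
Hspa5 promoter, chr2:34771840-34772089, plus strand: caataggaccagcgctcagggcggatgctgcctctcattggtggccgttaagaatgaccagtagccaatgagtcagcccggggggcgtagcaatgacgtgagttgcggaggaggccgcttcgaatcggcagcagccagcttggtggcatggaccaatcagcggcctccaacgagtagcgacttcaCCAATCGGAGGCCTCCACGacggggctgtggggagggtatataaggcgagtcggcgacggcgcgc
Other elements of the response were rarer. The unfolded protein response element TGACGTGG was found in 4 of 34 genes (Ube2j1, Vcp, Txndc5 and Txndc11), or 11.8%, against 0.714% of all genes. ERSE-II (ATTGG, 1 base, CCACG) was found in Dnajb11, 1 of 34 genes, against 0.0444% of all genes, and the C/EBP-ATF element TGATG, 1 base, AA in Txndc5, or 2.94% against 4.51%. The base composition of promoters was not matched in these shares, and a match is a description of letters, not of binding. The windows are on another genome build than the deposited peaks, so the windows and the peaks were not laid over each other.

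All 25 tested folding genes rose in activated cells, with a median log2 difference of 1.89. The 14 chaperones and chaperone helpers had the highest median of the folding groups, 2.27, beside 1.73 for 8 disulfide enzymes and 1.79 for 3 prolyl isomerases. The largest log2 difference among folding genes, on FPKM + 1, was that of Mzb1. This is a B cell ER protein that assists immunoglobulin assembly together with the chaperone Hsp90b1. The order depends on the added 1: the plain ratio of group means was 11.2 for Fkbp11 and 9.58 for Mzb1. Mzb1 measured 141 and 179 FPKM in resting samples and 1536 and 1537 in activated samples, and moved from rank 194 and 157 among all genes to rank 9 and 5. The groups were far apart, with a log2 difference of 3.26 (SE 0.246, n = 2 per group, limma adjusted p = 0.000144).

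Hspa5 encodes BiP, the ER Hsp70 that binds unfolded chains, including free immunoglobulin heavy chains. It measured 180 and 190 FPKM in resting and 762 and 858 FPKM in activated samples, a log2 difference of 2.12 (SE 0.227, limma adjusted p = 0.000513). Hsp90b1, the ER member of the Hsp90 family, measured 120 and 121 FPKM in resting and 743 and 1059 FPKM in activated samples. The activated replicates of Hsp90b1 differed by 0.51 on the log2 scale, which is smaller than its difference between groups of 2.87 (SE 0.258, limma adjusted p = 0.000262). Relative to Hspa5, Hsp90b1 stood at 0.665 and 0.638 in resting and 0.975 and 1.24 in activated samples, so that the levels of the pair came close in activated samples.

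The helpers of BiP differed in how their ratio to it behaved. Dnajb11 and Dnajc3, J-domain co-chaperones, rose with log2 differences of 2.0 and 1.49 (limma adjusted p = 0.000614 and 0.00173). Hyou1, a large Hsp70-like protein that releases nucleotide from BiP, rose from 19.3 and 19 to 87.0 and 130 FPKM, with no overlap between groups. Sil1, the other nucleotide exchange factor, rose less, from 6.34 and 6.07 to 16.9 and 16.6 FPKM (log2 difference 1.30, SE 0.141, limma adjusted p = 0.000529). Sil1 over Hspa5 was 0.0352 and 0.0320 in resting and 0.0223 and 0.0194 in activated samples, whereas Hyou1 over Hspa5 was 0.107 and 0.10 against 0.114 and 0.152. Dnajb11 over Hspa5 overlapped between groups, with 0.197 and 0.182 against 0.158 and 0.199. Dnajc10, a J-domain disulfide reductase that also acts in degradation, had the smallest difference among the chaperones and helpers, 1.09 (limma adjusted p = 0.00621).

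4 further ER proteins had larger log2 differences than BiP, an order that was not tested and that lay within the standard errors for Hspa13. Sdf2l1, which works with Dnajb11 and BiP, went from 18.3 and 21.0 to 160 and 211 FPKM. Manf, a BiP-binding protein that is also secreted, went from 18.4 and 22.1 to 151 and 214 FPKM. Creld2, an EGF-domain protein of the ER, went from 10.3 and 14.4 to 83.1 and 126 FPKM, and Hspa13, an Hsp70-like protein, from 5.32 and 6.45 to 28.7 and 49.0 FPKM. In each of the 4 the lower activated sample was above the higher resting sample by a wide margin, and the log2 differences were 3.16, 3.09, 2.97 and 2.49 (limma adjusted p from 9.3e-05 to 0.000446). The glycoprotein lectin chaperones Calr and Canx rose less, with log2 differences of 1.73 and 1.38 (limma adjusted p = 0.00164 and 0.00387). Calr measured 214 and 193 FPKM in resting and 590 and 780 FPKM in activated samples, while the membrane-bound Canx went from 52.3 and 62.9 to 125 and 183 FPKM.

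The disulfide enzymes rose in 8 of 8 tested cases, from 1.05 for Ero1lb to 2.64 for Pdia6 on the log2 scale. Pdia6, an isomerase that associates with BiP, went from 39.2 and 49.5 to 230 and 343 FPKM. P4hb, the classic protein disulfide isomerase, started higher and rose less, from 55.6 and 67.0 to 190 and 277 FPKM (log2 difference 1.89, limma adjusted p = 0.00121). The order of the pair was thus exchanged, with Pdia6 over P4hb at 0.705 and 0.739 in resting and 1.21 and 1.24 in activated samples. Txndc5, a thioredoxin-domain isomerase known to be abundant in plasma cells, went from 91.7 and 110 to 434 and 466 FPKM (log2 difference 2.15, limma adjusted p = 0.000426). Pdia3, the isomerase that partners with the lectins, Pdia4 and Txndc11 had log2 differences of 1.75, 1.58 and 1.70 (limma adjusted p = 0.00105, 0.00138 and 0.00176).

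The 2 Ero1 oxidases, which pass oxidising equivalents to the isomerases, differed in level in both groups. Ero1lb measured 41.5 and 43.8 FPKM in resting and 85.7 and 92.8 FPKM in activated samples, and Ero1l measured 4.45 and 4.05 against 11.8 and 18 FPKM. Both rose (log2 differences 1.05 and 1.57, limma adjusted p = 0.00309 and 0.0013), and the ratio of Ero1lb to Ero1l went from 9.32 and 10.8 to 7.26 and 5.16, so Ero1lb remained the more abundant form.

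Pdia5 was the exception among the disulfide enzymes and was not tested, because it lay under 1 FPKM in each sample. It measured 0.905 and 0.962 FPKM in resting and 0.0482 and 0.0300 FPKM in activated samples, the reverse of the other members. Multiplying each value by the relative depth of its sample gives a relative number of reads, not a corrected level. With activated replicate 1 set to 1, this number was about 26 and 27 in the resting samples and 0.996 in activated replicate 2. With no filter on low values, limma gave a log2 difference of -0.90 (SE 0.082, adjusted p = 0.004). At its locus (mm9 chr16:35397397-35490959) there was no FAIRE, H3K27ac or H3K4me3 peak and no Hi-C contact, and 2 STARR peaks lay outside FAIRE.

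The prolyl isomerases rose in 3 of 3 cases. Fkbp11, known to be expressed in secretory cells, had the largest change of the 3, from 2.11 and 3.05 to 24.9 and 32.6 FPKM (log2 difference 3.06, SE 0.202, limma adjusted p = 9.28e-05). Ppib, the ER cyclophilin, was the most abundant, from 124 and 151 to 446 and 439 FPKM, and Fkbp2 went from 11.7 and 14.7 to 46.6 and 49.2 FPKM. Their groups did not overlap, and the replicates of activated cells lay within 0.08 of each other on the log2 scale for Fkbp2 and Ppib.

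Of the 14 degradation genes 12 rose, with a median log2 difference of 1.30, lower by 0.59 than that of the folding genes. The 2 classes overlapped: Derl3 exceeded every tested folding gene, 10 degradation genes lay above Ero1lb, the lowest folding gene, and 2 folding genes lay below the median of the degradation genes. No test was made of this difference, because the genes were chosen with results known. The median of the degradation genes was above that of all tested genes in each fit made.

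Derl3, a derlin of the membrane channel that carries chains out of the ER (mm9 chr10:75356142-75358686), had the largest difference of the 41 genes. It measured 3.23 and 4.69 FPKM in resting and 102 and 113 FPKM in activated samples, a log2 difference of 4.46 (SE 0.191, n = 2 per group, limma adjusted p = 3.75e-05). Its relatives moved by far less: Derl1 went from 27.1 and 30.5 to 64.8 and 80.0 FPKM (log2 difference 1.29, limma adjusted p = 0.00173). Derl2 was not called, with 14.4 and 16.0 FPKM in resting and 16.4 and 16.7 FPKM in activated samples (log2 difference 0.11, SE 0.146, limma adjusted p = 0.535), and its sign turned under upper quartile scaling (-0.02). Derl3 over Derl2 thereby went from 0.224 and 0.293 to 6.24 and 6.76. In resting cells Derl1 had the highest FPKM of the 3 derlins and Derl3 the lowest, and in activated cells Derl3 had the highest.

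Sel1l and Syvn1 form the core of the membrane ubiquitin ligase, Syvn1 (Hrd1) as the ligase and Sel1l as its scaffold. Sel1l went from 16.7 and 17.0 to 59.8 and 74.0 FPKM (log2 difference 1.92, SE 0.177, limma adjusted p = 0.000283). Syvn1 measured 65.5 and 73.1 FPKM in resting and 108 and 130 FPKM in activated samples, and its log2 difference of 0.77 (SE 0.201, limma adjusted p = 0.0175) was the smallest among the called genes. The call of Syvn1 was lost without resting replicate 1 (adjusted p = 0.143), without resting replicate 2 (0.0782) and without activated replicate 2 (0.0507), with the direction kept. Such fits leave 1 sample in a group, which is assumed to vary like the other group. Sel1l over Syvn1 was 0.256 and 0.233 in resting and 0.552 and 0.571 in activated samples. Ube2j1, the membrane-anchored ubiquitin-conjugating enzyme, went from 26.3 and 28.2 to 60.7 and 78.2 FPKM (limma adjusted p = 0.00177).

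Mannose trimming and recognition rose in 5 of 5 genes. Edem1, which trims mannose from misfolded glycoproteins, went from 29.2 and 29.4 to 109 and 132 FPKM (log2 difference 2.0, SE 0.189, limma adjusted p = 0.000314). Its relatives Edem2 and Edem3 had log2 differences of 1.76 and 1.51 (limma adjusted p = 0.000272 and 0.00545), and the activated replicates of Edem3 were unequal, 23.6 and 45.2 FPKM over 9.90 and 11.8 FPKM in resting samples. The lectins that read the trimmed glycans, Os9 and Erlec1, rose less, by 1.05 and 1.01 (limma adjusted p = 0.00206 and 0.00471). Erlec1 measured 5.71 and 3.89 FPKM in resting and 10.8 and 10.4 FPKM in activated samples.

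The cytosolic extraction complex moved unequally. Vcp, the ATPase that pulls chains from the membrane, went from 19.9 and 21.4 to 49.7 and 68.4 FPKM (log2 difference 1.45, SE 0.202, limma adjusted p = 0.00141), and its cofactor Nploc4 from 11.7 and 13.5 to 22.0 and 34.1 FPKM (1.07, limma adjusted p = 0.00757). The partner cofactor Ufd1l was not called, with 15.2 and 15.5 FPKM in resting and 17.6 and 20.1 FPKM in activated samples (log2 difference 0.27, SE 0.15, limma adjusted p = 0.161). Ufd1l over Vcp was 0.763 and 0.727 in resting and 0.354 and 0.293 in activated samples. Serp1, which stabilises membrane proteins at the translocon, was already at 354 and 411 FPKM in resting samples and reached 1104 and 957 FPKM in activated samples (log2 difference 1.43, limma adjusted p = 0.00344).

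Further ER and degradation genes outside the set were less uniform. Of 19 tested other ER folding genes 6 rose (31.6%, near the 28.2% of all tested genes) and 2 fell, with a median log2 difference of 0.31. Prdx4, an ER peroxiredoxin, had the largest rise (2.82), followed by Cnpy2 (2.12), the J-protein Dnajb9 (1.98) and Erp44, which retains client proteins (1.91). The 2 that fell were Cnpy3 (-1.05), a chaperone of Toll-like receptors, and the thioredoxin-related Tmx4 (-0.75), and the call of Tmx4 was lost without either resting replicate (adjusted p = 0.0648 and 0.0846 by limma). The genes called lower numbered 1 without resting replicate 2 and 2 without each other sample. Of 36 tested other ERAD genes 15 rose (41.7%) and 6 fell, with a median of 0.18. The largest rises were those of Vimp (2.31), Herpud1 (1.61), Selk (1.29) and Rad23b (1.25), of which the first 3 are ER membrane proteins of the degradation machinery.

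The 6 that fell were Tmub1 (-1.11), Atxn3 (-0.67), Rnf139 (-0.66), Erlin2 (-0.64), Ubl4 (-0.46) and Dnajb14 (-0.42). The call of Dnajb14 was lost in 11 of 13 other ways of fitting, among them both other pseudocounts, and that of Ubl4 in 5. The counts for other ERAD genes depended on single samples: 8 were called higher without resting replicate 1, 8 without resting replicate 2 and 9 without activated replicate 2, and 3 and 1 were called lower without resting replicates 1 and 2. Among 27 chaperones of the cytosol and mitochondria 22 rose (81.5%) and 1 fell (Dnajb1, -0.62), with a median of 0.95. Hspd1 (1.92), Hsp90ab1 (1.78), Hspa9 (1.77) and Tcp1 (1.6) rose most, and without resting replicate 1 the number called higher was 11. These lists were tested in the same fit, and no test compared them with the 41 genes.

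**Figure D3:**
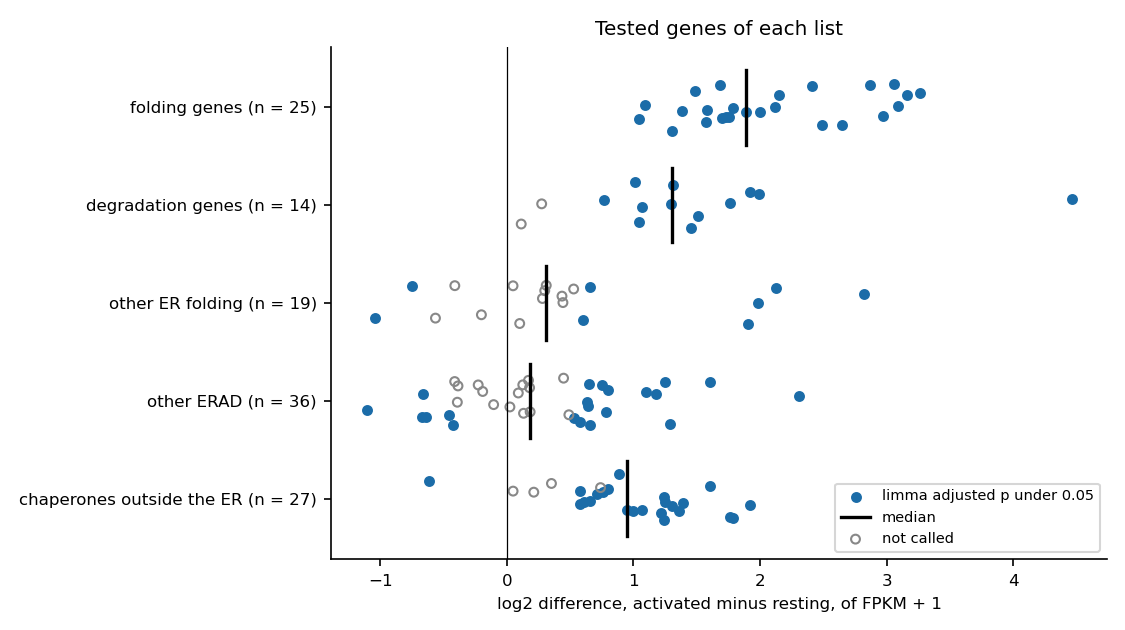
Log2 difference (activated minus resting, FPKM + 1) of each tested gene by list, filled where the limma adjusted p was under 0.05 and open where not, with the median as a black bar. The medians are 1.89 for folding and 1.30 for degradation genes, 0.31 and 0.18 for the other ER folding and other ERAD genes, and 0.95 for chaperones outside the ER.

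The 2 activated samples were not equal for this set. In 36 of the 40 tested genes activated replicate 2 exceeded replicate 1, by a median of 0.37 on the log2 scale, where 56.4% of all tested genes did so with a median of 0.05. Of the 6 listed markers of antibody-secreting cells 5 were also higher in activated replicate 2, and Tnfrsf17 was not (0.864 and 0.834 FPKM). Among the 5, the transcription factors Prdm1 and Xbp1 measured 61.3 and 75.8 FPKM and 402 and 466 FPKM in activated replicates 1 and 2. The part of these values in the shift of the 41 genes was not tested. In the resting samples 32 of 40 genes were higher in replicate 2, beside 61.9% of all tested genes.

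The cells carried B cell markers in both groups. The 5 listed B cell markers were abundant in each sample, with 4 of 5 called lower in activated cells, and of 5 tested markers of antibody-secreting cells 4 were called higher, from 1.23 and 1.26 to 61.3 and 75.8 FPKM for Prdm1. Sdc1, a surface marker of plasma cells, was not called (3.46 and 3.76 against 2.16 and 5.17 FPKM). Tnfrsf17, of the same list, was too low to test (0.887 and 0.539 against 0.864 and 0.834 FPKM). All 8 matched macrophage markers were lower in activated samples, summing to 543 and 589 FPKM in resting and 8.45 and 11.1 FPKM in activated samples, with C1qa and C1qb listed at 0 in both activated samples. For the T cell genes Cd3e, Cd3d and Cd3g the table lists 0 in the activated samples and at most 1.5 FPKM in resting ones, while Cd4 (5.48 and 5.01 FPKM) and Cd8a (4.21 and 6.005 FPKM) were higher in resting samples and were called lower in activated samples, and the red cell gene Hbb-b1 was at 394 and 2324 FPKM in resting and 11.5 and 4.24 FPKM in activated samples. Lyz2, a neutrophil and monocyte marker, was at 57.0 and 363 FPKM in resting and 0.268 and 6.51 FPKM in activated samples. Neither Lyz2 nor Ly6c2 of that list was called. Both tested NK cell markers were called lower, and of the tested dendritic cell markers Itgax was called lower and Flt3 higher. The part of other cells in the differences of the 41 genes was not tested, and in such bulk samples a change in the number of cells of a type and a change of RNA per cell cannot be told apart.

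At the loci of the 41 genes, taken as the deposited locus and 2 kb on each side on mm9, open chromatin and active marks were near the level of tested genes at large. FAIRE peaks were present at 40 of 41 loci (97.6%, against 93.3% of tested genes), H3K27ac peaks at 39 (95.1% against 89.8%) and H3K4me3 peaks at 38 (92.7% against 91.1%). With no flank the share for FAIRE was 35 of 41 (85.4%) against 88.1%, so its order against tested genes turned. STARR peaks in FAIRE lay at 28 of 41 loci (68.3% against 57.9%), at 16 of 26 folding and 11 of 14 degradation loci. Among genes called higher by at least 2-fold the share with a STARR peak in FAIRE was 61.7%. No test was made of these shares, because each list has no replicate. Many windows also touched another gene row, so a peak in a window may belong to a neighbouring gene. At Fkbp2, for example, the nearest FAIRE, H3K27ac and H3K4me3 peaks lay 1.29, 0.82 and 0.66 kb outside the locus.

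The STARR peaks in FAIRE at these loci numbered 41, of which 31 lay within 1 kb of a locus end, 35 in H3K27ac and 35 in H3K4me3. The shares at other genes were not counted, and at short loci the window itself keeps peaks near an end. These numbers are therefore not read as a trait of the 41 genes. Edem3 held the most, with 5 (7 with those outside FAIRE); 3 of the 5 lay within 1 kb of a locus end and 2 farther inside the locus (mm9 chr1:153602503-153669458). Those with 2 were Hspa13, Calr, Canx, Sil1, Manf, Pdia6, Edem1, Syvn1 and Ufd1l. At Derl3 the single STARR peak (mm9 chr10:75355946-75356246) overlapped a locus end, in H3K27ac and H3K4me3. Peaks within the list carry no score, so the strength of enhancers was not compared.

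The marks were wide at several members of differing RNA level. Sel1l, with a mean of 66.9 FPKM in activated cells, had an H3K27ac peak of 4447 bp. Calr, with a mean of 685 FPKM, had 1738 bp at most. The widest H3K27ac peak was at Edem1, of 12892 bp, followed by Txndc5 (11581 bp), Serp1 (10669 bp), Mzb1 (8570 bp) and Pdia4 (6732 bp). Peaks of at least 4 kb were present at 9 of the 39 loci with H3K27ac (23.1%), against 8.34% of tested genes with a peak. For H3K4me3 the same width was reached at 7 of 38 loci (18.4%) against 6.88%. The median of the widest H3K4me3 peak was 2768 bp at these loci and 2008 bp at tested genes. Widths at genes of like RNA level or RNA change were not counted, so width is not read as a trait of the set. Serp1 was the 1 member at which a super-enhancer lay, a feature of 0.488% of tested genes.

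3 loci had no H3K4me3 peak: Hspa5, Pdia5 and Txndc11. Hspa5 also had no H3K27ac peak, although it measured 762 and 858 FPKM in activated cells. Its nearest H3K27ac and H3K4me3 peaks lay 13.4 kb and 13.7 kb from the locus (mm9 chr2:34627609-34632049). Its nearest FAIRE peak (mm9 chr2:34633188-34633488) lay 1.14 kb past the 3′ end of the locus, on the side away from the start. At Hsp90b1 the marks were short, 668 bp of H3K27ac and 500 bp of H3K4me3, and both lay inside the locus and not within 500 bp of either end. Among the 44 tested genes of at least 500 FPKM in activated cells, 5 had no H3K27ac and 6 no H3K4me3 peak in the same window, so Hspa5 was not the sole case.

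Hi-C contacts in the deposited list, which pairs enhancers with promoters over pooled replicates, touched 39 of 41 loci (95.1%, against 81.5% of tested genes and 88.1% of genes called higher by at least 2-fold). The median was 6 contacts per locus against 4 for tested genes, and 25 loci had at least 5 (61.0% against 46.0%). Anchors of 500 to 5000 bp overlap one another in the list, and after merging overlapping far anchors the medians were 5 and 4 regions per locus. Folding and degradation genes had medians of 5.5 and 6 contacts. The loci had 319 contacts summed over genes, 318 of them distinct, at distances from 2.15 kb to 14926 kb with a median of 641 kb. Of the 319 far anchors 230 held a STARR peak in FAIRE. The share at other genes was not counted, and the list itself selects enhancers, so this number is not read as a trait of these loci.

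Syvn1 had the most contacts, 30 at 22 merged regions, followed by Manf with 20, Calr with 19, Canx with 17, and Derl2 and Vcp with 16 each. The window of each of these genes also touched another gene row, so contacts counted there may belong to a neighbouring gene. The contact of Syvn1 with most reads, 117, led to an anchor 27.6 kb away at Capn1. Derl2 and Syvn1, with the smallest RNA differences in the membrane complex, were among the loci with most contacts. Other members did not follow such an order: Ube2j1 (log2 difference 1.31) had 2 contacts and Sel1l (1.92) had 4, while Manf (3.09) had 20. A relation of contacts to RNA difference was not tested. Derl3 had 4 contacts, all 43.3 to 59.5 kb away and all with a STARR peak in FAIRE at the far anchor. Hspa5 had 8 contacts, 206 to 4942 kb away, with 5 to 7 reads each and a STARR peak in FAIRE at each far anchor. The same held for every contacted member without a STARR peak in FAIRE at its own locus. The list pairs enhancers with promoters, so this can follow from its filter and is not a trait of Hspa5. Pdia5 and Nploc4 had no contacts.

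1 contact joined 2 members. It ran from an anchor that begins within 2 kb of Ufd1l and lies over 2510002D24Rik to an anchor over Sdf2l1 on chromosome 16, 1708 kb away, with 5 reads and a deposited z-score of 4.35, the smallest read number among the contacts of these loci. Contacts with few reads carry large counting error, and the list was made with a filter by the authors, so that a locus with no contact is only a locus with none listed.

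**Figure D4:**
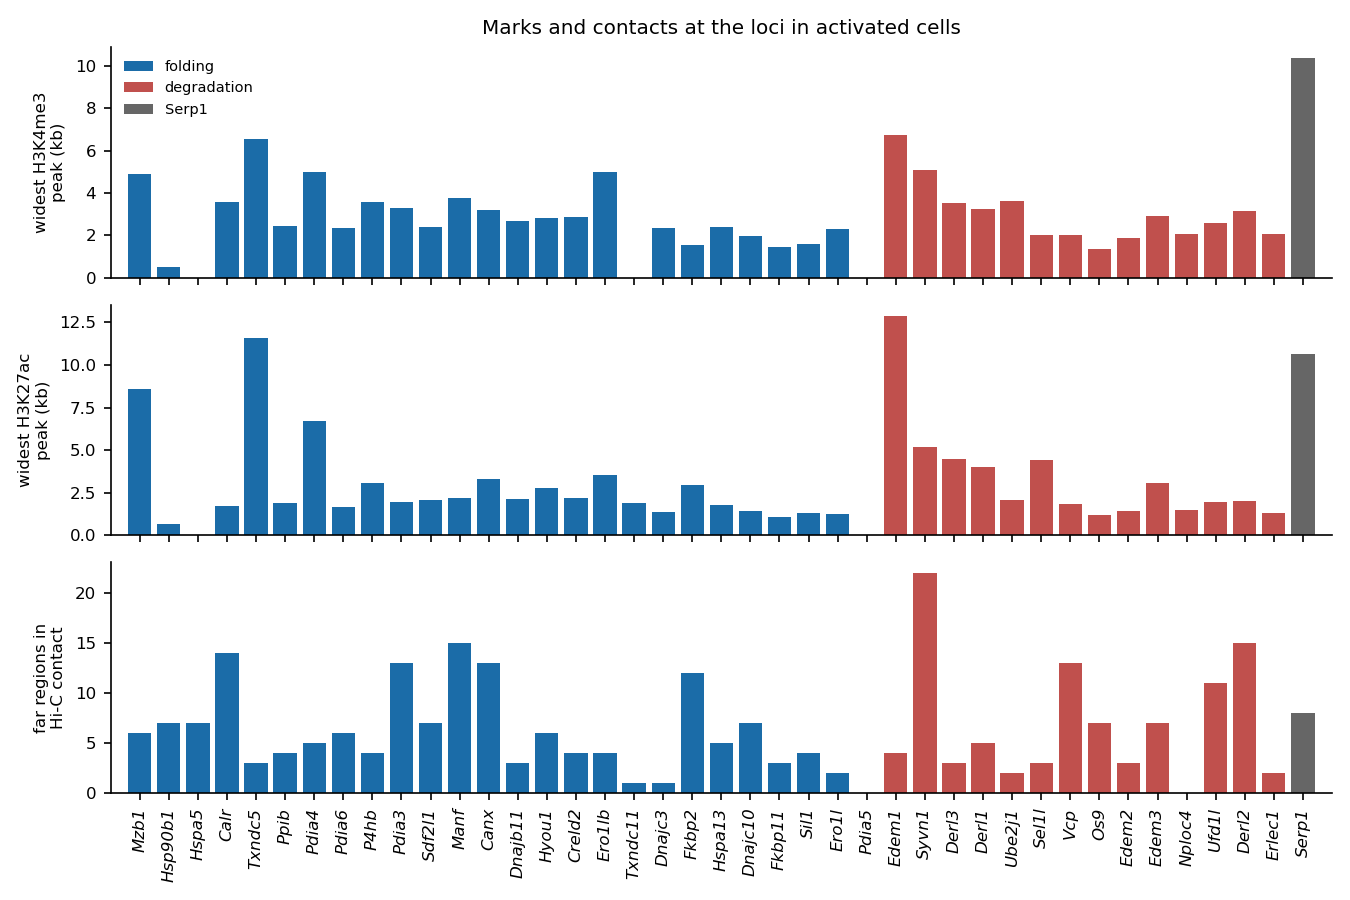
Width in kb of the widest H3K4me3 peak (top) and H3K27ac peak (middle) in the locus and 2 kb on each side, and number of merged far regions in Hi-C contact (bottom), for the 41 genes in order of activated FPKM within folding (blue), degradation (red) and Serp1 (grey). Edem1, Txndc5 and Serp1 have the widest H3K27ac, Hspa5 and Pdia5 have none, and Syvn1 has the most far regions.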

How the data were processed

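The authors deposited 1 normalised RNA value per gene and sample, read here as FPKM because fractions occur and column sums vary (244602 to 287884), although no unit is named. Steps of the lowest values put the depth of the other samples at 1.35 to 1.6 times that of activated replicate 1. The submitters' processing notes name Bowtie, Bowtie2, TopHat2, STAR, HOMER, bedtools and mm9, with no role for each. Strand is not stated, and 6 members (Pdia6, Txndc11, Syvn1, Serp1, Pdia4 and Ppib) overlap another gene row, so their values are uncertain. The authors deposited a read count and a z-score for each Hi-C contact, computed over pooled replicates. Per the labels, each assay has 1 peak list, with positions and no score.

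limma 3.58.1 in R 4.3.3 was fitted with trend and robust options, without a block, on log2(FPKM + 1), and fold changes are on that scale, which understates low genes. The script was tested on simulated data. Nothing in the labels ties a replicate to its own animal or culture, so the p-values cover the spread between samples alone, which can be technical. An exact permutation test of 2 against 2 cannot go below p = 0.333. The named genes were all 41 members, up to 4 called genes of each other list with the largest difference and called genes against their list's majority, and for loci the members at the extremes of each count. The members and the lists were chosen with earlier results of these data known. Of 27 other ER folding, 37 other ERAD and 27 outside chaperone genes, 26, 36 and 27 matched a symbol. Peaks overlapping by at least 1 base were counted. ER retrieval signals, H3K4me1, nascent RNA and resting ChIP-seq were not analysed here. Over genes, log2 values correlated at r = 0.981 between resting and 0.974 between activated replicates.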

Additional observations from a re-analysis of the deposited data

How the results depend on the processing

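Of the 520 values of single members under 13 other ways of fitting the RNA data, 516 kept their direction and side of the threshold; the exceptions were Syvn1 without 3 of the samples in turn, given in the report, and Derl2 (log2 difference -0.016, adjusted p = 0.926 under upper quartile scaling). The members called higher numbered 38 in all alternatives but those that leave out a sample, where they ranged from 37 to 38, with 25 folding and 11 to 12 degradation genes. The members' median log2 difference was 1.54 with a pseudocount of 5 and 1.54 with quantile normalization, and 1.54 to 1.89 with samples left out. The median of degradation genes was 1.07 with quantile normalization and 1.09 to 1.47 with samples left out. The folding minus degradation difference was 0.56 to 0.70 with samples left out, 0.65 with Dnajc10 counted as degradation and 0.54 with Serp1 counted as folding. All genes called higher numbered 1735 to 2859 and called lower 1191 to 2834 with samples left out, and the cause was not tested beyond the smaller number of samples. The same settings gave 4 to 7 higher and 1 to 2 lower for other ER folding genes, 8 to 17 higher and 1 to 4 lower for other ERAD genes, and 11 to 23 higher and 0 to 1 lower for chaperones outside the ER. Upper quartile scaling moved the median of all genes from 0.03 to -0.09. Replicate numbers share only a number in the labels: same-numbered samples deviated together with r = 0.124 over genes in 2 pairs, and the replicate block gave 3317 higher and 2964 lower genes over all and left 38 members higher. Members with ERSE numbered 16 with 1 mismatch. With no flank the loci with FAIRE were 35 (85.4%, against 88.1% of tested genes) and with STARR in FAIRE 22 (53.7% against 46.4%), with 10 kb they were 40 (97.6% against 96.2%) and 29 (70.7% against 67.3%), and with contacts at or above the median read count 34 loci had 1. With 2 samples a group, the spread of each gene rests on few values.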
